A study of Mus musculus with 6 samples.

Results

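The genes described here encode the eukaryotic translation initiation factors, eIF1 to eIF6, with their guanine nucleotide exchange factors, kinases and binding proteins. They are the protein-coding mouse genes whose symbols begin with Eif1 to Eif6. Of 56 such symbols in the RefSeq gene table, 54 had a row among the 17741 rows of the expression table, and Eif4a3l1 and Eif4e1b were not analysed here. The rule reads gene symbols only, and the set was proposed with earlier results of these data known.

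Expression was measured by RNA-seq in C57BL/6 mouse fetuses at 9.0 days post coitum (dpc), with 3 libraries from wild type fetuses (WT) and 3 from fetuses that overexpress KLF12. KLF12 is a Krüppel-like zinc-finger transcription factor, known mainly as a repressor. The study asked how a high KLF12 level leads to neural tube defects. How KLF12 was overexpressed, and whether 1 sample is 1 fetus or a pool, is not given in the sources used here. The p-values therefore reflect only how these libraries vary, and part of that variation may be technical. Y-linked genes, given below, were listed at 0 in KLF12 libraries 1 and 2 but not in 3. These libraries were thus not all from 1 RNA source.

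Initiation factors bring a ribosome to the start codon of an mRNA. eIF2 carries the initiator methionyl-tRNA to the small ribosomal subunit, where eIF1, eIF1A, eIF3 and eIF5 help to form a scanning complex. eIF4E binds the mRNA cap, eIF4G bridges it to eIF3, and the helicase eIF4A unwinds the leader. eIF5B then joins the large subunit, which eIF6 otherwise keeps apart. Supply is regulated at eIF2, by kinases that phosphorylate its alpha subunit, and at eIF4E, by binding proteins under mTORC1 control.

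Values are FPKM, fragment numbers scaled by transcript length and by library size, so levels of different genes can be compared. The sum of FPKM was 598031 to 635381 in 5 libraries and 528236 in KLF12 library 3. Klf12 itself was at 1.99, 2.11 and 1.32 FPKM in WT libraries 1, 2 and 3 and at 16.4, 15.2 and 23.9 in KLF12 libraries 1, 2 and 3 (limma log2 difference 2.78 ± 0.22 SE, adjusted p = 0.00113). KLF12 library 3 stood apart: its log2 values correlated by 0.951 and 0.957 with the other KLF12 libraries, which correlated by 0.972 with each other, and by 0.955 to 0.959 with the WT libraries. Summed neural tube, heart, endothelial and surface ectoderm markers were above 0 in each library, as were those of the 3 lists whose sums did not overlap between the groups. These were 4 primitive erythroid markers (4104 to 9349 FPKM in WT, 1068 to 3319 in KLF12 libraries) and 4 paraxial mesoderm markers (73.0 to 80.9 and 27.3 to 60.6). The other list held Foxa2, Shh and Sox17, chosen as gut endoderm markers (6.37 to 9.99 and 14.7 to 23.6). The groups did not overlap for Foxa2 and Shh but did for Sox17, so this sum is not read as a level of gut. Of tissues that a dissection could carry along, 5 yolk sac markers summed to 335, 113 and 56.1 FPKM in WT libraries 1, 2 and 3. In KLF12 libraries 1, 2 and 3 the sums were 260.5, 366 and 239. All 5 had positive differences, and whether yolk sac was carried along was not tested. Trophoblast, decidua and macrophage sums also overlapped between the groups. No single marker in these lists was called. In whole fetuses, fewer cells of a type and less RNA per cell cannot be told apart.

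Of the 52 initiation factor genes that could be tested, 1 fell: Eif4e3, an atypical cap-binding relative of eIF4E. The other 51 did not pass, and 50 of the 52 lay within 0.5 of no difference on the log2 scale, Eif2s3y being the other outside. All tested genes had a mean of at least 1 FPKM, and 2 members, Eif3j2 and Eif4ebp3, were below it. The test was limma on log2(FPKM + 1), with Benjamini-Hochberg adjustment over all 12141 genes tested. Of those, 89 (0.733%) were called at an adjusted p under 0.05, 77 (0.634%) of them lower, beside 1 of 52 (1.92%) members.

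The groups of 3 did not overlap for 7 of the 52 members (13.5%), against 16.9% of all genes tested. Of the 7, 6 were lower in the KLF12 libraries (8.98% of all genes) and 1 higher (7.9% of all genes), so the share in total did not exceed the background. An unadjusted p under 0.05 was reached by 6 of 52 (11.5%), against 10.9% of all genes. Differences were mostly small and negative: 41 of 52 had a negative log2 difference, with a median of -0.12, against 52.7% of all genes and a median of -0.016. That count was 32 with quantile normalization, against 48.3% of all genes, and 35 after rescaling to TPM, against 47.2%. Without KLF12 library 3 it was 35, against 54.8%. The 95% confidence interval, unadjusted, had a median half-width of 0.36 on the log2 scale. For 50 of 52 members the interval lay inside a 2-fold change in either direction.

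**Figure D1:**
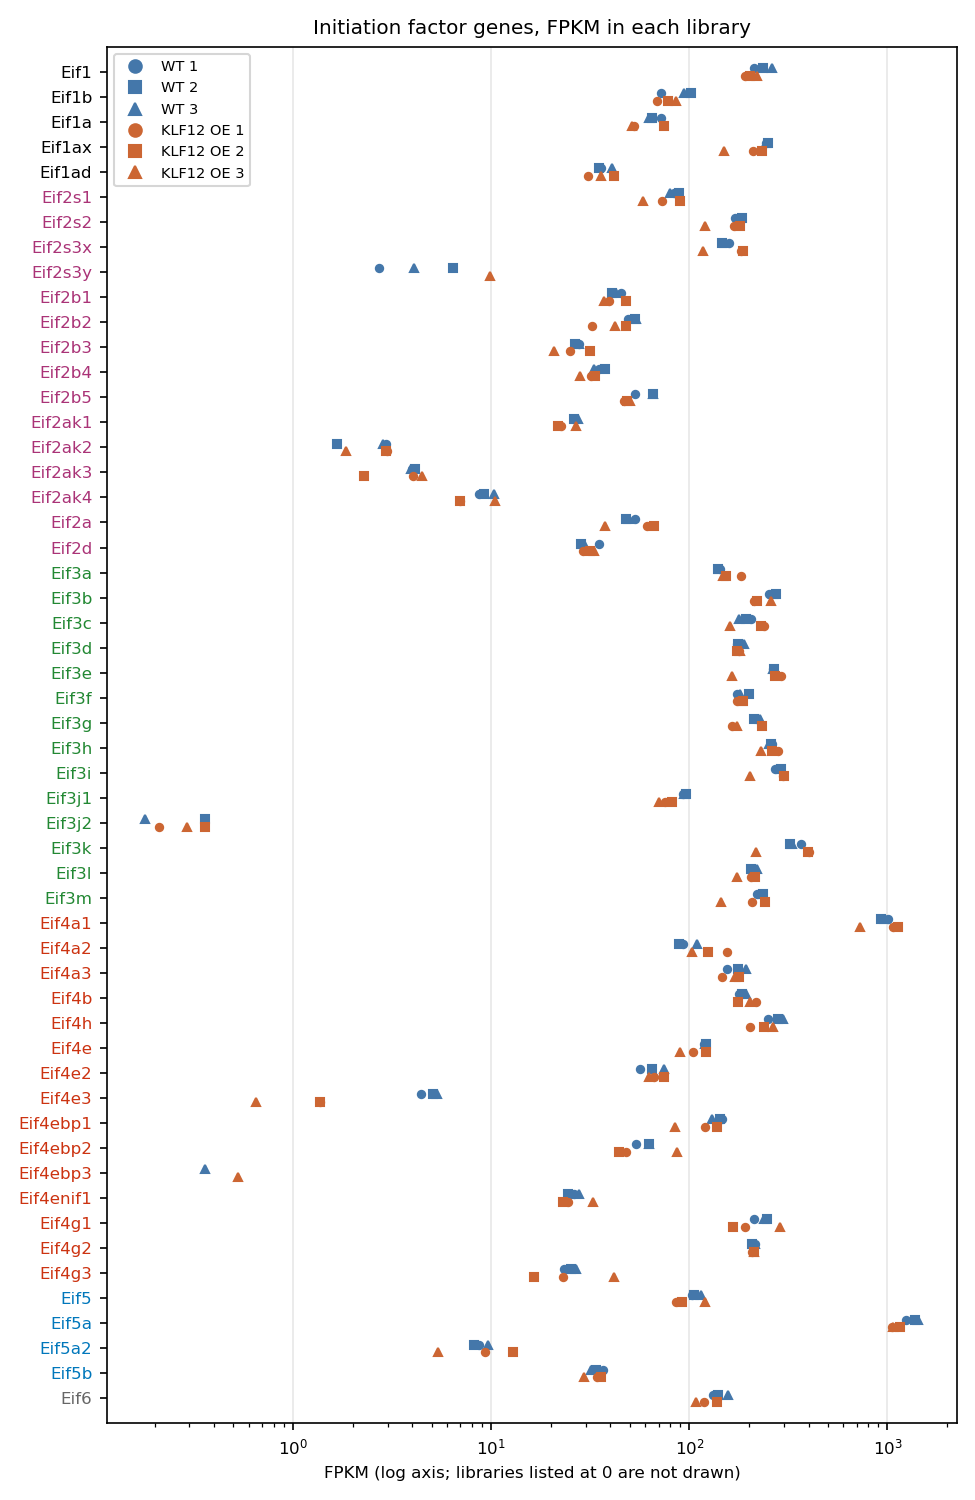
FPKM of the 54 initiation factor genes in each library, on a log axis, with WT libraries in blue above and KLF12 libraries in orange below each gene's line, and gene names coloured by factor number. Eif5a and Eif4a1 lie highest, and in most rows the colours overlap, while Eif4e3 shows blue near 5 and orange near 1.

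**Figure D2:**
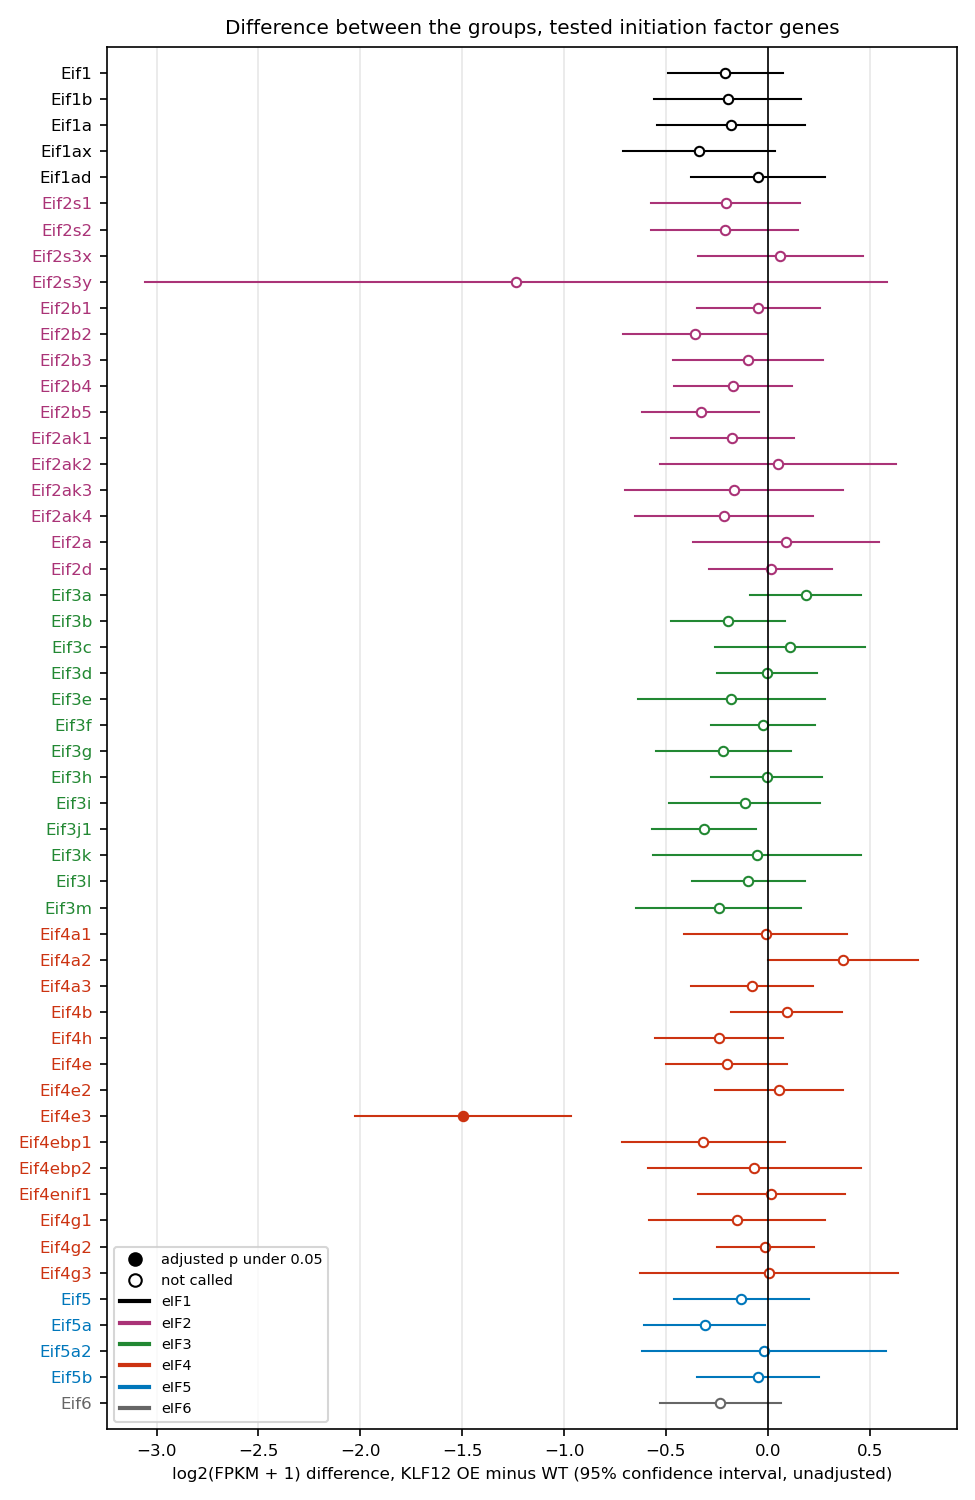
Difference in log2(FPKM + 1), KLF12 minus WT, for the 52 tested genes, with unadjusted 95% confidence intervals, filled where called at an adjusted p under 0.05. Eif4e3 at -1.50 is the filled point, and Eif2s3y has the widest interval.

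The 3 cap-binding genes of the eIF4E family are Eif4e, the general cap receptor, Eif4e2 (4EHP), which represses bound mRNAs, and Eif4e3. Since they are paralogues, their coding sequences in GENCODE M21 (mouse GRCm38) were compared to see whether fragments of one could be counted for another. Eif4e3 shared 51.7% of aligned coding bases with Eif4e and 60.9% with Eif4e2. The longest run that it shares with each is in capitals below, in coding bases 66 to 164 of Eif4e3 beside Eif4e, and 11 to 110 beside Eif4e2. The stretches of the other genes are coding bases 339 to 437 of Eif4e and 468 to 567 of Eif4e2. The paired lines are centred on the run and are not an alignment of the genes.
Eif4e3: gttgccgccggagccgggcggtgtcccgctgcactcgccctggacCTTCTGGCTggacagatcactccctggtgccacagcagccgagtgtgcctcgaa
Eif4e: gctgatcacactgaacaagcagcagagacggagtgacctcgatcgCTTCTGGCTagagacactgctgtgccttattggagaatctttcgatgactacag
Eif4e3: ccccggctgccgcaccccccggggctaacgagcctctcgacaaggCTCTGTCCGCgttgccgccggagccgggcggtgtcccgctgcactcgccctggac
Eif4e2: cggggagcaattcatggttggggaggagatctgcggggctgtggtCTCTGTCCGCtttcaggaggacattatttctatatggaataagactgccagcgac
These runs are 9 and 10 bases long, so no long stretch of coding sequence is common to Eif4e3 and the other cap-binding genes.

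Eif4e3 (NCBI gene 66892) was at 4.40, 5.11 and 5.30 FPKM in the WT libraries and at 1.37, 1.37 and 0.650 FPKM in the KLF12 libraries. Each KLF12 library lay below every WT library, and KLF12 library 3 was the lowest. The means were 4.94 ± 0.474 and 1.13 ± 0.416 FPKM (SD, n = 3), a ratio of 4.37 between WT and KLF12. In limma the log2 difference was -1.50 ± 0.23 (SE), with an adjusted p of 0.0267. The call held in 1 of the 6 fits that left out a library, without KLF12 library 3 (adjusted p = 0.0212). Both KLF12 libraries in that fit were listed at 0 for 4 Y-linked genes, which were above 0 in all WT libraries. Sex and KLF12 overexpression cannot be told apart there. In the other 5 fits the adjusted p was 0.0575 to 0.176, with log2 differences of -1.58 to -1.45. Without a filter on low values the adjusted p was 0.1005.

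The other cap-binding genes did not pass. Eif4e was at 118, 122 and 120.1 FPKM in WT and 104, 121 and 90.2 in the KLF12 libraries, which overlapped (adjusted p = 0.646). Eif4e2 was at 56.4, 65.0 and 74.9 and at 66.2, 74.4 and 62.8 FPKM (adjusted p = 0.941). Eif4e3 is the minor member at this stage: it made up 2.45, 2.66 and 2.65% of the summed FPKM of the 3 genes in WT and 0.799, 0.696 and 0.423% in the KLF12 libraries. The summed level of the 3 genes was 191 ± 10.6 FPKM in WT and 174 ± 21.8 FPKM with KLF12 overexpression (exact permutation p = 0.3, two-sided; 3 samples against 3 cannot go below 0.1).

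The gene span of Eif4e3 in RefSeq overlaps Gpr27, an orphan receptor gene, and strand was not stated for the counting, so fragments of the pair could be mixed. Gpr27 was at 5.58, 4.96 and 3.02 FPKM in WT and 3.79, 5.74 and 6.70 in the KLF12 libraries, and so did not share the low values of Eif4e3. Foxp1, the next protein-coding gene on one side, was at 6.62, 7.74 and 3.60 and 6.41, 5.15 and 8.74 FPKM. Neither was called (adjusted p = 0.848 and 0.891). Over the 6 libraries, the 3 tested genes with the pattern most like Eif4e3 were Dera, Myl3 and C1qtnf12, with Pearson r of 0.999, 0.999 and 0.997 as a description. Myl3, a cardiac and slow muscle myosin light chain, was at 67.8, 78.8 and 76.7 FPKM in WT and 37.6, 36.9 and 28.4 in the KLF12 libraries. C1qtnf12, a secreted C1q-related protein, was at 18.3, 18.8 and 22.6 and 5.36, 4.89 and 2.92. The erythroid and paraxial mesoderm marker sums, and the sum of Foxa2, Shh and Sox17, separated the same libraries. Their part in the level of Eif4e3 was not tested.

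**Figure D3:**
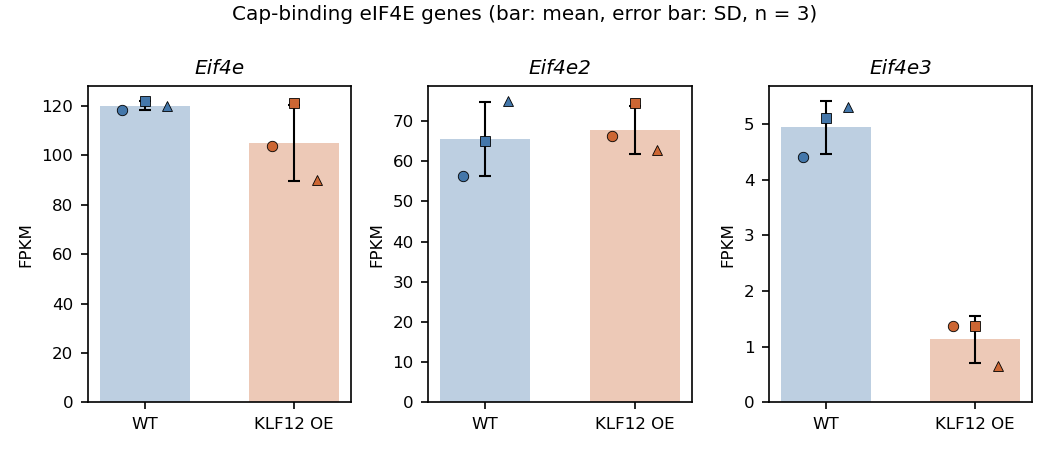
FPKM of the 3 cap-binding genes in WT and KLF12 libraries, each panel with its own axis from 0. Bars are means, error bars SD (n = 3) and points single libraries: the groups overlap for Eif4e and Eif4e2, and for Eif4e3 all KLF12 points lie at or below 1.37 and all WT points at or above 4.40.

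Further genes encode proteins that bind eIF4E. Eif4ebp1, whose product blocks eIF4E until mTORC1 phosphorylates it, was at 147, 142 and 130.0 FPKM in WT and at 119.7, 139 and 84.2 in the KLF12 libraries (log2 difference -0.32 ± 0.18 SE, limma adjusted p = 0.590). KLF12 library 3 was far below the rest, and library 2 lay inside the WT range. Eif4ebp2 went the other way in that library, at 48.1, 44.2 and 86.8 against 53.8, 62.9 and 62.8 FPKM in WT. Eif4enif1, the nuclear import carrier of eIF4E, was at 24.4, 23.0 and 32.8 against 26.3, 24.3 and 27.7. Eif4ebp3 was listed at 0 in 4 libraries, and at 0.36 and 0.53 FPKM in WT library 3 and KLF12 library 3.

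Of the scaffold genes, Eif4g1, the main eIF4G scaffold, was at 212, 246 and 239 FPKM in WT and at 191, 166 and 285 in the KLF12 libraries (adjusted p = 0.860). KLF12 libraries 1 and 2 were below all WT libraries, and library 3 was above them all. The paralogue Eif4g3 had the same arrangement of libraries, at 23.3, 25.4 and 26.7 and 23.1, 16.4 and 41.9 FPKM. Eif4g2 (DAP5), a scaffold that lacks the eIF4E site, was among the steadiest members, at 213, 208 and 214 and 206, 211 and 212.

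Among the DEAD-box helicases, Eif4a1 was the second most abundant member, at 1001, 925 and 971 FPKM in WT and 1062, 1134 and 730.5 in the KLF12 libraries (log2 difference -0.010 ± 0.18 SE, adjusted p = 0.995). KLF12 libraries 1 and 2 were above the WT range and library 3 below it. Eif4a2, which is the more tissue-restricted paralogue, had the highest positive difference of all members, 0.37 ± 0.16 (SE), but was not called (adjusted p = 0.456). It was at 93.4, 89.2 and 109.9 FPKM in WT and 155, 124 and 104 in the KLF12 libraries, the lowest of which lay within the WT range. As a share of Eif4a1 plus Eif4a2, Eif4a2 was 9.17 ± 0.880% in WT and 11.7 ± 1.59% in the KLF12 group (SD, n = 3 each; exact permutation p = 0.2, two-sided). Eif4a3, a core protein of the exon junction complex, was at 175 ± 18.5 and 165 ± 16.7 FPKM.

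Eif4h and Eif4b encode cofactors of these helicases. Eif4h was at 248, 282 and 299 FPKM in WT and 202, 237 and 265 in the KLF12 libraries (log2 difference -0.24 ± 0.14 SE, adjusted p = 0.600), with library 3 inside the WT range. Eif4b was at 185 ± 8.12 and 198 ± 19.9 FPKM (SD, n = 3; adjusted p = 0.868).

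eIF2, which delivers the initiator tRNA, is a trimer made of alpha (Eif2s1), beta (Eif2s2) and gamma subunits, and 2 genes encode gamma in the mouse, Eif2s3x on the X and Eif2s3y on the Y chromosome. Both coding sequences, from GENCODE M21, have 1419 bases, and 86.3% of these are identical. The first 150 coding bases are shown, with the 23 bases that differ in capitals, since such differences are what allows fragments to be assigned to one copy.
Eif2s3x: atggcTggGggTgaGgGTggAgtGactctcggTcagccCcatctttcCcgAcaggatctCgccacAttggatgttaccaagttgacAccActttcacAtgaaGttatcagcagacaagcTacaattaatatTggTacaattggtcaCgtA
Eif2s3y: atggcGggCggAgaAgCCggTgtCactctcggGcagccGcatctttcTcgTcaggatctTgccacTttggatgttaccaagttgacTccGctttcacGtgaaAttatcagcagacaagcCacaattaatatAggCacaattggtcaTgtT
The longest run without a difference in the whole coding sequence is 34 bases. Most changes in this stretch are single bases spread along it.

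Eif2s3y was at 2.73, 6.43 and 4.10 FPKM in the WT libraries, was listed at 0 in KLF12 libraries 1 and 2, and was at 9.86 in KLF12 library 3. Ddx3y, Kdm5d and Uty, also Y-linked, were likewise listed at 0 in KLF12 libraries 1 and 2 and highest in KLF12 library 3. Eif2s3y thus differed most within the KLF12 group (limma adjusted p = 0.646, and 0.0194 without KLF12 library 3). Y-linked values follow the sex of the fetuses, which is not given in the sources used here. KLF12 library 3 had the highest Klf12 level (23.9 FPKM) together with Y-linked values, so overexpression and their absence did not always go together. For other genes in KLF12 libraries 1 and 2, sex and KLF12 overexpression cannot be told apart, since all WT libraries had Y-linked values.

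Eif2s3x was at 159, 147 and 151 FPKM in WT and 183, 186 and 117 in the KLF12 libraries (log2 difference 0.062 ± 0.18 SE, adjusted p = 0.947). The libraries with no Y-linked values were the highest for the X-linked copy, and KLF12 library 3 the lowest. Eif2s3y was 1.69, 4.20 and 2.65% of the gamma sum in WT and 7.75% in KLF12 library 3. The sum of both copies was 162, 153 and 155 FPKM in WT, and 183, 186 and 127 in the KLF12 libraries (exact permutation p = 0.8, two-sided). The alpha subunit gene Eif2s1 and the beta subunit gene Eif2s2 had the same library order among KLF12 samples, with 72.9, 90.2 and 58.1 and 167, 180.3 and 119.7 FPKM against WT means of 84.0 ± 4.36 and 178 ± 7.65. KLF12 library 3 was the lowest of the 6 libraries for alpha, for beta and for the gamma sum.

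**Figure D4:**
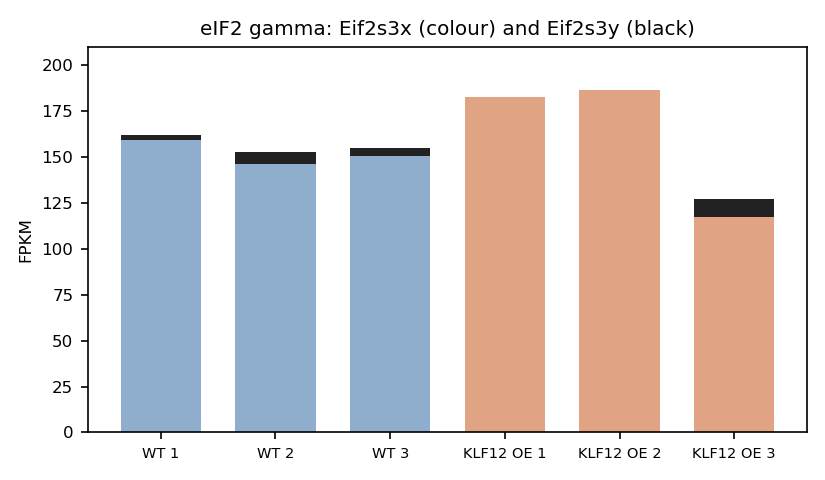
FPKM of the eIF2 gamma genes in each library, with Eif2s3x in colour (WT blue, KLF12 orange) and Eif2s3y stacked in black. The black segment is missing in KLF12 libraries 1 and 2 and tallest in KLF12 library 3, where the total is the lowest, 127 FPKM.

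eIF2B, a complex of 5 subunits, exchanges GDP for GTP on eIF2, and loss of its function causes a white matter disease. All 5 of its genes had negative differences, 0 of 5 called, with a median of -0.17. The signs were the same under each scaling tried, and 3 of 5 were negative without KLF12 library 3. The groups did not overlap for Eif2b2 and Eif2b5. Of all genes tested, 52.7% had negative differences, and 16.9% had groups that did not overlap, 8.98% being lower. A set of 5 genes is too small to compare with these shares. Eif2b5, the catalytic epsilon subunit, was at 53.2, 65.8 and 65.3 FPKM in WT and 46.7, 48.6 and 50.1 in the KLF12 libraries (log2 difference -0.33 ± 0.13 SE, limma adjusted p = 0.381). Eif2b2, the beta subunit, was at 48.9, 53.1 and 54.0 and 32.4, 47.9 and 42.2 FPKM (-0.36 ± 0.16 SE, adjusted p = 0.446). For Eif2b5 the KLF12 libraries were close together, and for Eif2b2 library 1 was well below library 2. Eif2b1, Eif2b3 and Eif2b4 lay between -0.17 and -0.047, with overlapping groups.

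The 4 eIF2 alpha kinases sense different stresses: Eif2ak1 heme shortage, Eif2ak2 double-stranded RNA, Eif2ak3 unfolded protein and Eif2ak4 amino acid shortage. Eif2ak1 (HRI) was the most abundant, at 26.2, 26.3 and 27.5 FPKM in WT and 22.4, 21.7 and 26.7 in the KLF12 libraries (adjusted p = 0.711), with KLF12 library 3 inside the WT range. It is most active in erythroid cells, whose marker sums, given above, did not overlap between the groups; their part in its level was not tested. Eif2ak4 (GCN2) was at 8.72, 9.25 and 10.4 and 6.97, 6.94 and 10.4 FPKM (log2 difference -0.21 ± 0.19 SE, adjusted p = 0.772). Eif2ak3 (PERK) and Eif2ak2 (PKR) were low, at means of 4.02 and 2.48 FPKM in WT. None of the kinases was called by limma, and their groups overlapped.

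Genes translated or transcribed when eIF2 alpha is phosphorylated were also read, from a list of 16, of which 14 could be tested. None was called, 10 had negative differences, and the median was -0.064. Atf4, the transcription factor at the centre of this response, was at 96.8, 84.1 and 107 FPKM in WT and 92.7, 87.6 and 106 in the KLF12 libraries (adjusted p = 0.997). These are RNA levels, and translation was not measured. Atf3 was at 3.23, 4.51 and 5.15 and 7.21, 7.15 and 6.78 FPKM (adjusted p = 0.267), and Trib3 at 2.28, 1.99 and 1.18 and 0.530, 0.180 and 1.2 (adjusted p = 0.382). Asns, asparagine synthetase, was at 46.4, 38.6 and 36.7 and 32.9, 35.6 and 21.6 FPKM (adjusted p = 0.445). Of the 14 tested, the groups did not overlap for Atf3, which was higher in the KLF12 libraries, or for Asns, which was lower. Such separation was found for 16.9% of all genes tested, so it does not mark out this list. The groups for Trib3 overlapped.

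Of the factors that can deliver initiator tRNA outside the eIF2 route, Eif2a was at 53.1, 48.0 and 49.6 FPKM in WT and 61.3, 66.5 and 37.5 in the KLF12 libraries (0.090 ± 0.20 SE, adjusted p = 0.934). KLF12 libraries 1 and 2 were above WT and library 3 below it. Eif2d was at 30.9 ± 3.46 and 31.1 ± 1.96 FPKM.

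eIF3 is the largest factor and binds the small subunit. Subunits a, c, e, f, h, k, l and m form its octameric core, b, g and i a module on the a subunit, d contacts the mRNA cap on some messages, and j is loosely attached. None of the 13 testable subunit genes was called, 11 had negative differences, and the median was -0.095. The number of negative values was 6 of 13 with quantile normalization, where the median was 0.0037, so the small negative median depends on scaling.

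Mean levels of the core subunit genes in WT ran from 141 ± 1.65 FPKM for Eif3a to 339 ± 23.0 for Eif3k. The KLF12 libraries differed among themselves. Relative to the WT mean, the median log2 deviation of the 8 core genes was 0.13 and 0.055 in KLF12 libraries 1 and 2 and -0.26 in library 3. The value in library 3 was -0.32 with median-of-ratios scaling, -0.064 after rescaling to TPM and -0.027 with quantile normalization, so its size depends on scaling. Of these 8 genes, 6 (Eif3c, Eif3e, Eif3h, Eif3k, Eif3l and Eif3m) were lowest in KLF12 library 3 of all 6 libraries, and 4 of 8 after rescaling to TPM or with quantile normalization. Eif3k, the most abundant subunit gene, was at 365, 322 and 329.5 FPKM in WT and 403, 398 and 216 in the KLF12 libraries (log2 difference -0.053 ± 0.23 SE, adjusted p = 0.968). Eif3e, another core subunit gene, was at 266, 268 and 265 and 292, 272 and 164 FPKM. Eif3h was at 260.2, 258 and 254 and 282, 260.1 and 229 FPKM (-0.0061 ± 0.12 SE), with library 3 again the lowest.

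The other core genes, Eif3f and Eif3a, did not have library 3 as the lowest. Eif3f was at 175, 199.8 and 179.9 FPKM in WT and 175, 187 and 184 in the KLF12 libraries, with library 3 inside the WT range. Eif3a, the scaffold of the core, was the member whose KLF12 libraries all lay above WT, at 183, 154 and 149 against 143, 139.7 and 141 FPKM (log2 difference 0.19 ± 0.12 SE, adjusted p = 0.645). Outside the core, Eif3i was at 269, 292 and 290.0 FPKM in WT and 296, 299.9 and 202 in the KLF12 libraries, once more with library 3 apart (adjusted p = 0.882). Eif3j1 had the second smallest p of all members. It was at 92.5, 95.7 and 94.0 FPKM in WT and 75.0, 81.8 and 70.3 in the KLF12 libraries, without overlap (-0.31 ± 0.11 SE, adjusted p = 0.351). Its value is uncertain because of a near-identical copy, Eif3j2: their coding sequences share a run of 784 bases, so fragments can be split between them. Eif3j2 was listed at 0 to 0.36 FPKM and could not be tested. Eif3d, Eif3f and Eif3l differed by -0.0049, -0.022 and -0.095 on the log2 scale, with unadjusted 95% intervals inside 0.5 of 0.

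**Figure D5:**
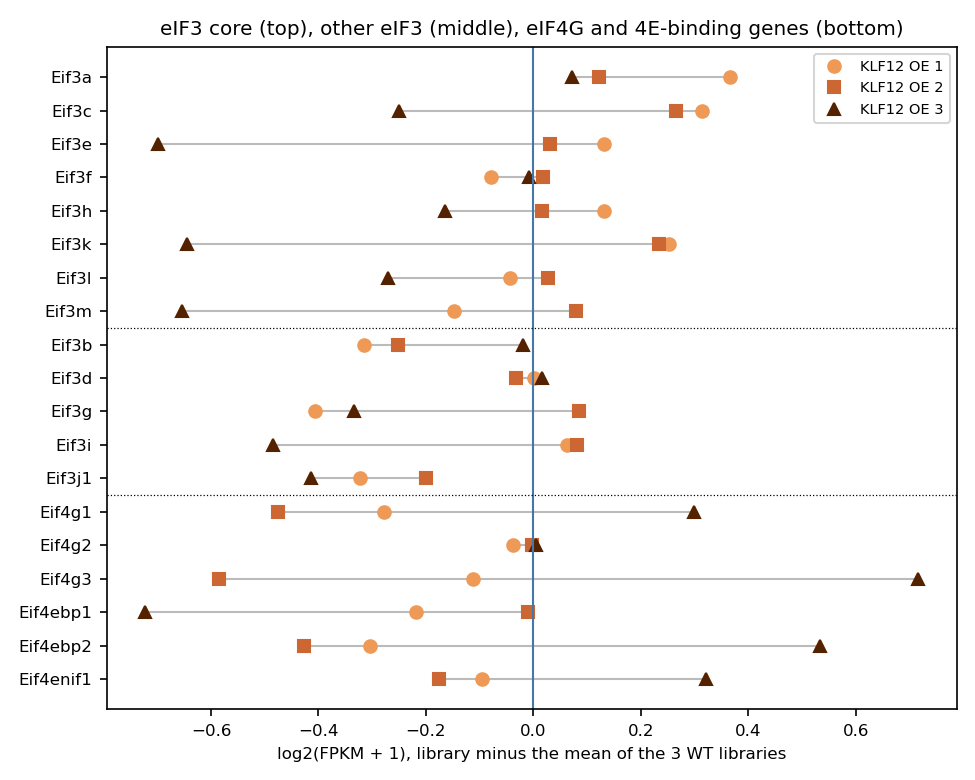
Log2(FPKM + 1) of each KLF12 library minus the mean of the 3 WT libraries (vertical line) for the eIF3 subunit genes and for the eIF4G and eIF4E-binding genes. For core genes such as Eif3e, Eif3k and Eif3m the dark triangle of library 3 lies left of 0, and for Eif4g1, Eif4g3 and Eif4ebp2 it lies right of 0, opposite to libraries 1 and 2.

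Across all members, KLF12 library 3 was the lowest library for 24 of 52 genes (46.2%), against 22.3% of all genes tested. These shares were 28.8% and 11.6% after rescaling to TPM, and 42.3% and 25.4% with quantile normalization. The median deviation of the 52 genes from the WT mean was -0.13, 0.013 and -0.23 in KLF12 libraries 1, 2 and 3, against -0.054, -0.0092 and 0.041 for all genes. In library 3 the medians of members and of all genes were -0.040 and 0.23 after rescaling to TPM, -0.29 and -0.010 with median-of-ratios scaling, and -0.052 and 0.012 with quantile normalization. In 11 members (21.2%, against 12.5% of all genes) libraries 1 and 2 lay above the WT mean and library 3 below it, and in 9 (17.3%, against 19.4%) the reverse held. All 3 KLF12 libraries lay above the WT mean for 2 members, Eif3a and Eif4a2 (3.85%, against 18.3%), and below it for 13 (25.0%, against 18.6%). Of 8 members with transcripts over 5000 bases, 4 were above the WT mean in library 3 (Eif3a, Eif4g1, Eif4g2 and Eif4g3) and 4 below it (Eif1ax, Eif3j1, Eif5a2 and Eif5b). Of 44 members with transcripts up to 5000 bases, 10 were above the WT mean in that library. With each library's length trend removed, the eIF3 core median in library 3 was still -0.26, and the median of all 52 members there was -0.18. The deviation of Eif4g1 in library 3 went from 0.30 to 0.016, and that of Eif4g3 from 0.72 to 0.42, while those of Eif1ax and Eif5b went from -0.72 to -0.98 and from -0.22 to -0.61.

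eIF1 and eIF1A act in start codon selection. All 5 genes whose symbols begin with Eif1 had negative differences, from -0.34 to -0.048, and none was called. Eif1ad is among them by its symbol only. The signs held under each scaling tried, and Eif1ad turned positive without WT library 3 or KLF12 library 1. Eif1ax, the X-linked eIF1A gene, was at 244, 249.6 and 245 FPKM in WT and 210.2, 233 and 149 in the KLF12 libraries (log2 difference -0.34 ± 0.17 SE, adjusted p = 0.508). The groups did not overlap, but library 2 lay close to WT and library 3 far below. Its autosomal paralogue Eif1a was at 66.6 ± 5.07 and 59.4 ± 13.2 FPKM, and the longest coding run that the pair shares is 28 bases. Eif1, which guards against initiation at wrong codons, was at 213, 236 and 261 and 191, 202 and 220.0 FPKM (adjusted p = 0.613).

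Eif5a was the most abundant member. Its product carries the modified amino acid hypusine and acts mostly in elongation and termination. It was at 1242, 1385 and 1432 FPKM in WT and 1051, 1154 and 1068 in the KLF12 libraries, which did not overlap (log2 difference -0.31 ± 0.13 SE, limma adjusted p = 0.435). In WT every Eif5a value lay above every Eif4a1 value, while in the KLF12 libraries the ranges of these 2 genes overlapped. The paralogue Eif5a2 was far lower, 0.590 to 0.696% of their sum in WT and 0.502 to 1.11% in the KLF12 libraries.

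Eif5, the GTPase-activating protein of eIF2, was at 103, 106 and 115 FPKM in WT and 85.8, 92.0 and 120.1 in the KLF12 libraries (-0.13 ± 0.15 SE, adjusted p = 0.837). Here library 3 was the highest of all. Eif5b, the GTPase of subunit joining, was at 36.8, 33.9 and 31.9 and 34.0, 35.9 and 29.2 FPKM (-0.050 ± 0.13 SE, adjusted p = 0.943). Eif6, which prevents early joining of the ribosomal subunits, was at 132, 140.4 and 156 and 119, 138 and 109 FPKM (-0.23 ± 0.13 SE, adjusted p = 0.594). For Eif6 KLF12 library 2 lay within the WT range and the other KLF12 libraries below it.

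Of 33 regulators of initiation outside the Eif symbols, 2 rose, 0 fell and 31 did not pass, against 0.0988% of all genes called higher. The median of the list was -0.031. Ddit4 (REDD1), which restrains mTORC1, was at 25.2, 21.9 and 17.1 FPKM in WT and 77.3, 37.9 and 76.7 in the KLF12 libraries (adjusted p = 0.0484). Rps6kb2, an S6 kinase that acts below mTORC1, was at 0.600 FPKM in WT library 1, was listed at 0 in WT libraries 2 and 3, and was at 1.97, 5.94 and 6.99 in the KLF12 libraries (adjusted p = 0.0453). With 1 library left out, each was called in 1 of 6 fits, Ddit4 without KLF12 library 2 and Rps6kb2 without KLF12 library 1, and the highest adjusted p was 0.247 and 0.219. Of the alternatives that kept all libraries, 5 of 11 ended the call of Ddit4 and 5 of 10 that of Rps6kb2, rescaling to TPM among both. Rps6kb1, the paralogue of Rps6kb2, was at 22.0 ± 3.48 and 21.7 ± 1.74 FPKM. Pabpc1, the poly(A)-binding partner of eIF4G, was at 509 ± 31.0 and 497 ± 76.8.

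Among elongation and release factors, none of 17 tested was called, 10 had positive differences, and the median was 0.0045. Eef1a1, the tRNA-delivering elongation factor, was at 7183, 6563 and 6467 FPKM in WT and 9012, 8359 and 5667 in the KLF12 libraries (adjusted p = 0.867). KLF12 libraries 1 and 2 were above the WT range and library 3 below it. The smallest unadjusted p values in the list belonged to Dph2, an enzyme that modifies eEF2, and Eefsec, the selenocysteine elongation factor, with log2 differences of -0.47 ± 0.20 and 0.35 ± 0.16 (SE; adjusted p = 0.446 and 0.468). The 3 mitochondrial initiation genes had negative differences and none was called. Mtif3 turned positive with array weights, without WT library 1 and without KLF12 library 3, and Mtif2 without WT library 2. Mtfmt, which formylates the initiator tRNA, was at 8.58 ± 0.576 and 6.81 ± 1.02 FPKM and Mtif2 at 12.5 ± 2.56 and 11.3 ± 0.913.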

How the data were processed

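RNA was extracted from fetuses with Trizol, per the labels' protocols. The authors deposited 1 table of FPKM values with 2 decimals and 6 columns. CASAVA, HISAT2 2.0.4, RSEM 1.2.8 and mm9 are named, without roles, per the submitters' processing notes. Strand and filters are not given in the sources used here. A weak periodic step in low values corresponded to about 14900000 to 16900000 fragments in a library, but was too weak to turn values into whole fragments, and depth per gene is unknown. Of 17741 rows, 16874 matched a symbol in RefSeq (GRCm38.p6); coordinates are not printed because builds differ.

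The 12141 genes whose mean reached 1 FPKM were fitted as log2(FPKM + 1) in limma 3.58.1 (R 4.3.3, trended variance), KLF12 minus WT. This scale understates changes of low genes. On simulated data, 46% of genes with a simulated log2 change of 1, and 86% with one of 2, were called, with 3 unchanged genes called. The simulation drew independent noise for each gene and library, without shifts shared by a whole library. These figures may therefore not hold for the real libraries. The members and gene lists were chosen with earlier results of these data known. Named genes were those called, the 10 smallest p, the 5 most abundant, the extremes, Eif2s3x, Eif2s3y and the largest difference in each factor; others serve as context, chosen after their values were seen. Alternatives covered pseudocount, filter, scaling, variance model, replicate block, threshold and each library left out; removal of the transcript length trend (GENCODE M21 lengths) was added after seeing the data.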

Additional observations from a re-analysis of the deposited data

How the results depend on the processing

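Klf12 kept its direction and call in each of the 17 alternatives (log2 difference 2.59 to 3.28), and Eif4e3 its direction in each of 16, being below the filter in the fit limited to means of 5 FPKM or more. The number of initiation factor genes called was 1 with all libraries and 0 to 2 with 1 left out. The 2 were Eif4e3 and the Y-linked Eif2s3y, without KLF12 library 3. The number was 0 without a filter, 0 at a mean of at least 5 FPKM, 10 with array weights (8 lower, 2 higher) and 7 by groups that do not overlap. Over all genes, 89 calls became 14 to 319 with 1 library left out, 29 without a filter, 55 as TPM, 1585 with array weights, 173 at an adjusted p under 0.1, 149 with the length trend removed and 2049 by groups that do not overlap. The 319 calls came without KLF12 library 3, where the KLF12 libraries left had no Y-linked values and all WT libraries had them. The cause of these moves was not tested.

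Same-numbered libraries were not paired by any label, and their deviations from the group means correlated by 0.027, -0.11 and 0.036. With the replicate block, 0 initiation factor genes were called (Eif4e3 adjusted p = 0.0700), and 64 genes in all.

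Of 21 named members, 13 kept their direction in all alternatives run. No reversal below carried a call. As TPM, Eif3h was at 0.030 and Eif4a1 at 0.026; with median-of-ratios scaling Eif3h was at 0.00075. With quantile normalization Eif3h, Eif3k and Eif4a1 were at 0.077, 0.039 and 0.046, and with the length trend removed at 0.058, 0.053 and 0.030. With array weights Eif3h, Eif3i, Eif3k, Eif4a1 and Eif5b were at 0.0999, 0.028, 0.21, 0.13 and 2.6e-05. With 1 library left out, the ranges were -0.064 to 0.34 for Eif2a, -0.053 to 0.28 for Eif2s3x, -0.075 to 0.073 for Eif3h, -0.21 to 0.072 for Eif3i, -0.21 to 0.24 for Eif3k, -0.13 to 0.19 for Eif4a1, -0.38 to 0.011 for Eif4g1 and -0.11 to 0.033 for Eif5b. The difference in Eif2s3x plus Eif2s3y was 8.92 FPKM, and -1.53 to 28.04 with 1 library left out. Depth per gene is unknown, which limits members near 1 FPKM, Eif4e3 in KLF12 library 3 included.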
